A study of Canis lupus familiaris with 8 samples.

Results

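The genes described here are those that RNA sequencing of PFA-fixed dog retina left below 1 CPM (a read count scaled to the size of the library) in every fixed library, although unfixed retina gave reads for them. They were chosen by their level in the fixed libraries alone, as genes with a value below 0 on the log2 CPM scale in all 4 of them. Gene symbols starting with COL, LAM, MMP, ADAM, KCN or ZNF were left out. Of 12824 genes in the table, 156 (1.22%) met the rule. Another 7 genes met the level but carried one of the prefixes (ADAM33, ADAMTS7, COLEC11, KCNQ5, MMP3, MMP11 and MMP19).

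The study asked how far RNA profiles of retina depend on how the eye was prepared. All eyes came from male wild-type Beagle dogs of 31 weeks. PFA-fixed retina (4 libraries) came from left eyes kept in 4% paraformaldehyde, a crosslinking fixative, for 3 h and in 2% for 24 h at 4 °C, then in 15% and 30% sucrose for 24 h each, and its RNA was extracted with a kit for fixed tissue, with proteinase K digestion for 18 h at 56 °C and a second removal of DNA. Fresh-frozen retina (4 libraries) came from right eyes embedded unfixed, and its RNA came from a micro-scale spin column kit. Eyecups of both sides were cut into quadrants and embedded in freezing medium, and both groups had the same stranded total RNA library kit. Because left eyes were all fixed and right eyes all frozen, with a different RNA kit for each, these 3 factors cannot be told apart. Laser capture appears in the title of the series, but no label tells if it was used for these 8 samples. Replicates are labelled as biological, with no dog named for any of them, so p-values measure only the spread between these libraries.

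The neural retina is a layered sheet of neurons and Müller glia that lines the eyecup. It lies on the pigment epithelium, and behind that are the vascular, pigmented choroid and the fibrous sclera, while the ciliary body and the drainage tissue of the front of the eye adjoin its edge. Most of these supporting tissues descend from neural crest and periocular mesenchyme, whose cells use transcription factors of the FOXC, ALX and TWIST families that neurons of the retina largely lack. In a library of the whole tissue, fewer cells of a type and less RNA per cell cannot be told apart.

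Depth was estimated from the steps between low values at 11000000 to 15300000 reads in PFA-fixed libraries and 21600000 to 22800000 in fresh-frozen libraries. At these depths 1 CPM was worth 9.76 to 13.6 reads in PFA-fixed libraries and 19.1 to 20.2 reads in fresh-frozen libraries. The lowest value anywhere in the table was -3.12 log2 CPM (0.115 CPM), and a gene at that value may have had no read. Every gene of the table exceeded 1 CPM in at least 4 of the 8 libraries, so a gene that stayed below it in all fixed libraries had to exceed it in all 4 fresh-frozen ones. That the groups do not overlap for these 156 genes therefore follows from the choice and is no result. CPM is not divided by transcript length, so a comparison of levels between genes below is one of reads, not of molecules.

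Fresh-frozen replicate 1 stood apart from its group most clearly in 2 marker lists. The summed level of 13 measured striated muscle genes was 293, 267, 299 and 323 CPM in PFA-fixed replicates 1 to 4, against 1121, 167, 157 and 172 CPM in fresh-frozen replicates 1 to 4. Genes of optic nerve glia and myelin (16 measured) summed to 189, 187, 196 and 201 CPM in the PFA-fixed libraries and to 2826, 485, 456 and 441 CPM in the fresh-frozen ones. Both lists were thus several times higher in fresh-frozen replicate 1 than in the other 3 fresh-frozen libraries. The label of neural retina was checked with 39 measured genes of retinal neurons and glia. They summed to between 40660 and 43160 CPM in PFA-fixed libraries and between 36708 and 40973 CPM in fresh-frozen libraries, and none of them was among the 156 genes.

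Among the 156 genes the fresh-frozen level was mostly low, with a small group far above the rest. The mean over the 4 fresh-frozen libraries had a median of 1.78 log2 CPM (quartiles 1.19 and 2.81) and ran from 0.44 for ATF7IP2 to 8.12 for MYOC, while the median over all 12824 genes was 4.97. Of the 156, 68 reached a fresh-frozen mean of 2 log2 CPM, 32 reached 3, 16 reached 4, 7 reached 5 and 3 reached 6. As a share of all genes at the same fresh-frozen level, they made up 5.84% between 0 and 1 log2 CPM, 8.04% between 1 and 2, and 3.34% between 2 and 3. The share was 0.934% between 3 and 4, 0.392% between 4 and 5, 0.153% between 5 and 6, and 0.0808% from 6 upwards. A gene of moderate or high fresh-frozen level was therefore rarely below 1 CPM in every fixed library, and the 3 that were from 6 log2 CPM upwards were MYOC, EDN3 and LUM, out of 3711 genes at that level.

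**Figure D1:**
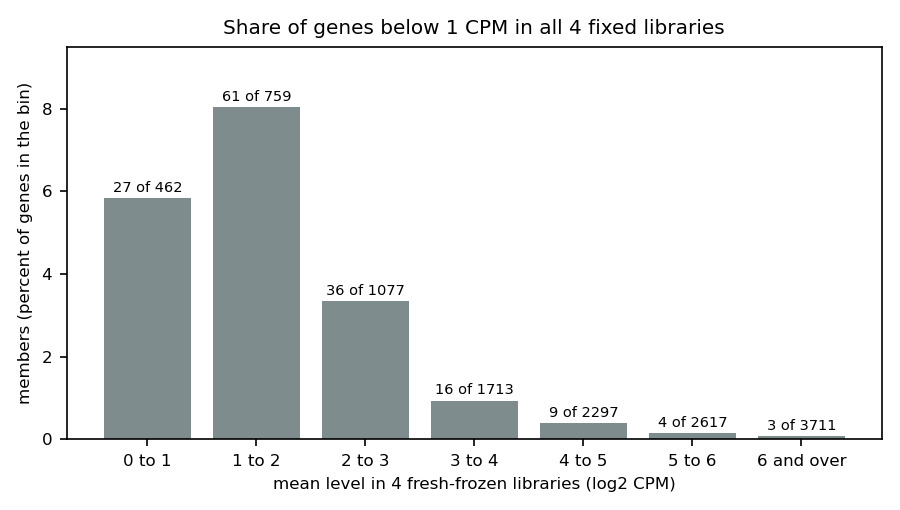
Bars show the percent of genes in each bin of mean fresh-frozen level (log2 CPM, horizontal axis) that lay below 1 CPM in all 4 PFA-fixed libraries, with their number and the number of genes in the bin above each bar. The share is highest between 1 and 2 log2 CPM (8.04%, 61 of 759 genes) and is 0.0808% from 6 log2 CPM upwards (3 of 3711 genes).

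Together the 156 genes summed to 61.0, 59.9, 57.8 and 72.1 CPM in PFA-fixed replicates 1 to 4, against 1395, 1625, 1446 and 1614 CPM in fresh-frozen replicates 1 to 4. This was 0.0060 ± 0.0007% of the summed CPM of all genes in PFA-fixed and 0.158 ± 0.0125% in fresh-frozen libraries (SD, n = 4 each). Every value includes the 0.115 CPM of the lowest level, which weighs more in the fixed sums than in the fresh-frozen ones. A few genes carried much of the fresh-frozen sum. MYOC alone made up 9.39%, 18.4%, 22.7% and 28.6% of it in replicates 1 to 4, and the 12 highest genes made up 43.7%, 55.0%, 57.1% and 58.5%.

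The difference between group means, PFA-fixed minus fresh-frozen, had a median of -3.51 on the log2 scale and ran from -10.37 for MYOC to -0.88 for CD180, where the median over all genes was -0.02. These differences are fixed in sign by the choice of the genes and were not tested. The difference was at or below -2 for 139 genes, at or below -4 for 54, and at or below -8 for 2, MYOC and EDN3. No gene sat at the table's lowest value in all 4 fixed libraries. It was reached in 3 of them by 11 genes, in 2 by 15, in 1 by 33 and in none by 97, which is 96 of 624 values (15.4%). Over the 4 fixed libraries together the estimated number of reads per gene had a median of 13.5 (range 0.999 to 37.0), and over the 4 fresh-frozen libraries a median of 301. A difference that includes values at the lowest level is set in part by that level.

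The fixed libraries were not alike in these residual reads. PFA-fixed replicate 4 held the highest fixed value of 64 of the 156 genes, against 37, 30 and 25 for PFA-fixed replicates 1 to 3, and it had 10 values at the lowest level, against 35, 29 and 22. The same counts over all genes are not given, so whether replicate 4 differed for these genes in particular is not known. The median level of the 156 genes was -1.72, -1.37, -1.85 and -1.19 log2 CPM in PFA-fixed replicates 1 to 4, compared with 1.95, 1.77, 1.65 and 1.81 in fresh-frozen replicates 1 to 4.

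**Figure D2:**
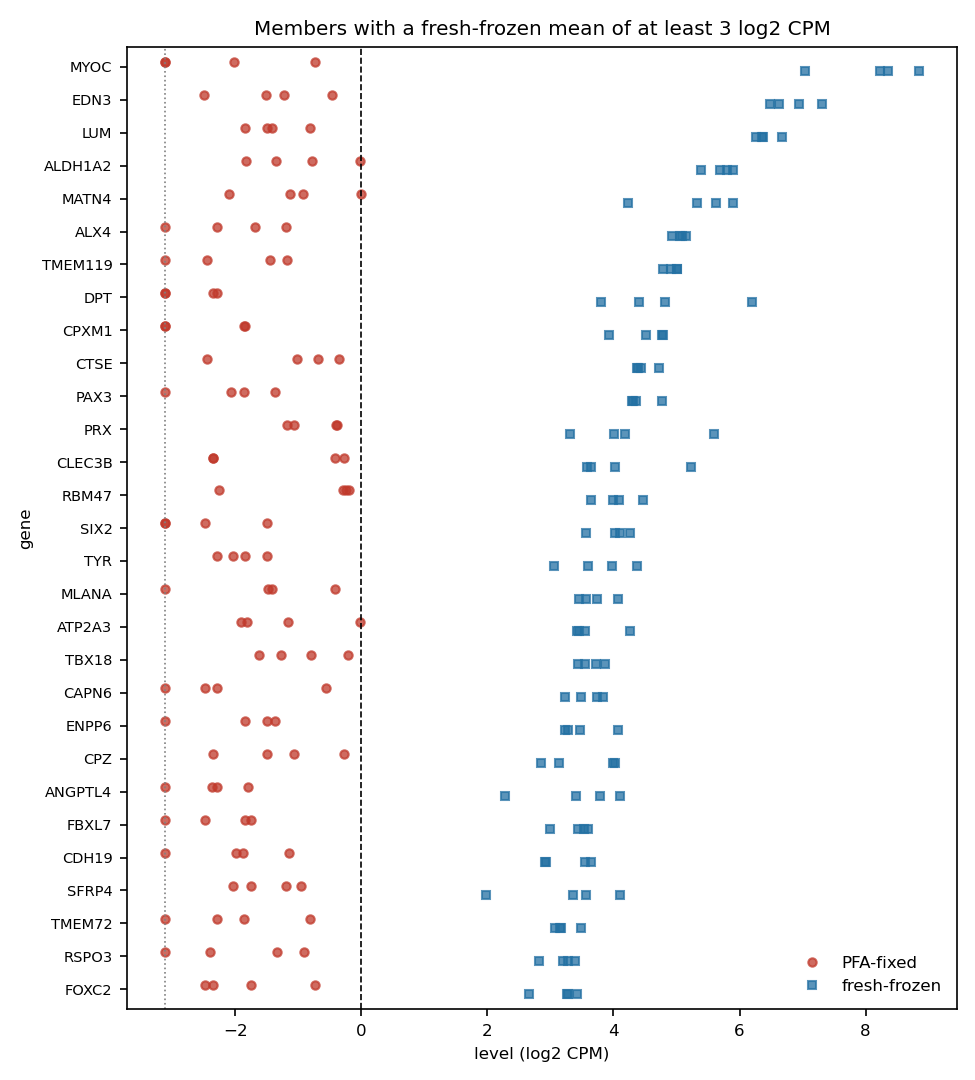
Each row is 1 of 29 of the 32 genes with a fresh-frozen mean of at least 3 log2 CPM, and the horizontal axis is the level in log2 CPM. Red circles are the 4 PFA-fixed libraries, blue squares the 4 fresh-frozen libraries, the dashed line is 1 CPM and the dotted line the lowest value of the table (-3.12). MYOC, EDN3 and LUM lie highest in fresh-frozen libraries, and DPT and PRX spread widely among them.

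The genes were sorted by known role into 9 classes, with their values already seen. A class was assigned to 84 genes, and 72 were left without one. Transcription factors were the most numerous class (24 genes), followed by immune cell genes (17), secreted signals and antagonists (10), matrix and secreted connective tissue proteins (9) and muscle genes (9). Myelin and nerve sheath genes (5), endothelial genes (5), enzymes of retinoid and steroid metabolism (3) and pigment cell genes (2) made up the rest. Median fresh-frozen means were 4.12 log2 CPM for matrix proteins, 3.73 for pigment cell genes, 3.26 for myelin genes and 2.67 for secreted signals. Lower medians were found for transcription factors (1.93), muscle genes (1.76), immune cell genes (1.47) and endothelial genes (1.41).

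**Figure D3:**
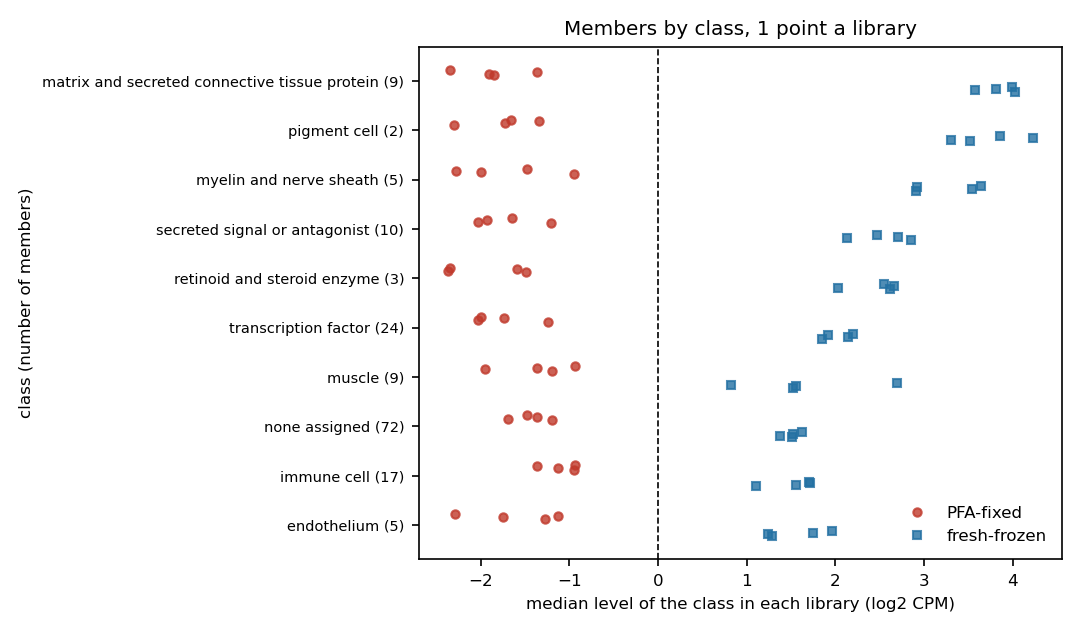
Points are the median level (log2 CPM) of each class in 1 library, with PFA-fixed libraries as red circles and fresh-frozen libraries as blue squares, and the number of genes in each class in brackets. Matrix proteins have the highest fresh-frozen median (4.12 over gene means), and the muscle class has 1 fresh-frozen library (replicate 1, 2.70) well above the other 3 (0.82 to 1.56).

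The 2 genes with the highest fresh-frozen level, MYOC and EDN3, encode secreted proteins and were sorted into the class of secreted signals and antagonists. MYOC encodes myocilin, a secreted glycoprotein abundant in the trabecular meshwork, ciliary body and sclera and mutated in some forms of human glaucoma. It measured -3.12, -3.12, -2.03 and -0.74 log2 CPM in PFA-fixed replicates 1 to 4, against 7.03, 8.22, 8.36 and 8.85 in fresh-frozen replicates 1 to 4. It averaged 0.269 CPM in PFA-fixed and 305 CPM in fresh-frozen libraries, values that include the lowest level of 0.115 CPM. With that level taken off, MYOC had an estimated 8.04 reads in all 4 fixed libraries together. Fresh-frozen replicate 1 was the lowest of its group, in a library where muscle and optic nerve genes were highest.

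EDN3, endothelin 3, is a peptide ligand that melanocyte precursors and enteric neural crest cells need. Its levels were -1.51, -0.46, -2.49 and -1.23 log2 CPM in PFA-fixed libraries and 6.94, 7.31, 6.63 and 6.48 in fresh-frozen libraries, a difference of -8.26. The 4 fresh-frozen values lay close together and far above the fixed ones. Its receptor gene EDNRB, not among the 156, averaged 3.01 log2 CPM in PFA-fixed and 7.58 in fresh-frozen libraries (limma adjusted p = 1.25e-09, difference -4.57, SE 0.17).

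Other secreted factors in the set act in Wnt, BMP and activin signalling. SFRP4, a Wnt antagonist, measured -1.19, -1.75, -2.03 and -0.95 log2 CPM in PFA-fixed libraries and 4.11, 3.36, 1.98 and 3.57 in fresh-frozen libraries. RSPO3 and RSPO2, which enhance Wnt signalling, averaged -1.94 and -1.47 log2 CPM in PFA-fixed and 3.17 and 2.16 in fresh-frozen libraries. The BMP antagonists NOG and CHRDL2 and the activin antagonist FST had fresh-frozen means of only 1.77, 0.66 and 1.30. ANGPTL4, a secreted inhibitor of lipoprotein lipase, averaged -2.39 ± 0.55 log2 CPM in PFA-fixed and 3.39 ± 0.79 in fresh-frozen libraries (SD, n = 4 each).

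Matrix genes of the set are known from fibrous tissue such as sclera and cornea. LUM and KERA encode lumican and keratocan, keratan sulfate proteoglycans that organize collagen fibrils. LUM was at -1.85, -0.82, -1.42 and -1.49 log2 CPM in PFA-fixed libraries and at 6.27, 6.36, 6.38 and 6.67 in fresh-frozen libraries, a difference of -7.81, with an SD of 0.17 over the fresh-frozen libraries. KERA, whose gene lies next to LUM in the gene table, had -3.12, -1.37, -1.42 and -2.35 log2 CPM in fixed and 1.48, 2.76, 2.38 and 3.18 in fresh-frozen retina. DCN, on the other side of LUM, encodes decorin and was not among the 156. It averaged 3.41 log2 CPM in PFA-fixed and 9.18 in fresh-frozen libraries, a difference of -5.76 (SE 0.33, limma adjusted p = 3.32e-08). DCN was thus far lower in fixed retina but stayed above 1 CPM there. For LUM and KERA a lower level in fixed retina follows from the choice of the genes.

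MATN4, matrilin 4, forms filaments in loose connective tissue. It measured -1.14, -0.92, -2.10 and -0.0001 log2 CPM in PFA-fixed libraries, against 4.23, 5.90, 5.63 and 5.33 in fresh-frozen libraries. Its value in PFA-fixed replicate 4 was the closest to the threshold of any of the 156 genes. DPT, dermatopontin, a small matrix protein, was at -3.12, -2.28, -3.12 and -2.35 log2 CPM in fixed and at 6.20, 3.81, 4.81 and 4.41 in fresh-frozen libraries. CLEC3B, tetranectin, had -2.35, -0.42, -0.27 and -2.35 log2 CPM in fixed libraries and 5.22, 3.64, 3.57 and 4.02 in fresh-frozen ones, and like DPT it was highest in fresh-frozen replicate 1.

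CPXM1, a carboxypeptidase-like protein found in collagen-rich tissue, measured -1.85, -3.12, -3.12 and -1.86 log2 CPM in PFA-fixed and 3.93, 4.51, 4.78 and 4.78 in fresh-frozen libraries. CPZ, a related carboxypeptidase that binds Wnt proteins, averaged -1.29 log2 CPM in fixed and 3.50 in fresh-frozen libraries. LRRC15, a membrane protein of activated fibroblasts, went the other way from DPT. It was at the lowest value in 3 fixed libraries and at -2.35 log2 CPM in PFA-fixed replicate 4, and it measured 0.44, 2.43, 2.75 and 2.50 log2 CPM in fresh-frozen replicates 1 to 4, lowest in replicate 1.

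Transcription factors were the largest class, and 14 of the 156 genes stood in the list of mesenchymal ones. ALX4, an aristaless-type homeodomain factor of craniofacial mesenchyme, was at -3.12, -2.28, -1.69 and -1.19 log2 CPM in PFA-fixed libraries and at 4.94, 5.15, 5.09 and 5.06 in fresh-frozen libraries, a difference of -7.13. Its fresh-frozen SD of 0.09 was the smallest of the 12 highest genes.

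PAX3, which marks neural crest and melanocyte precursors, had -2.07, -1.36, -1.86 and -3.12 log2 CPM in PFA-fixed libraries and 4.36, 4.78, 4.30 and 4.31 in fresh-frozen libraries. SIX2, a homeodomain factor of mesenchyme, averaged -2.55 log2 CPM in PFA-fixed and 3.99 in fresh-frozen libraries. TBX18, a T-box factor of mesothelium and pericyte precursors, averaged -0.97 ± 0.61 log2 CPM in fixed and 3.64 ± 0.19 in fresh-frozen libraries (SD, n = 4 each). FOXC2, TWIST1, PRRX2, GATA6, OSR1, ALX1, FOXD2, FOXS1 and EBF2 belong to the same group, with fresh-frozen means between 0.97 for OSR1 and 3.16 for FOXC2.

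The median SD of the 24 transcription factors over fresh-frozen libraries was 0.29, close to the 0.33 of all 156 genes. Of their fixed values, 25 of 96 (26.0%) were at the lowest level, near the 9 of 36 (25%) of matrix genes, while the share was 15.4% over all 156 genes. The list of mesenchymal transcription factors, of which 31 were measured, summed to 139, 165, 168 and 129 CPM in PFA-fixed libraries and to 559, 577, 564 and 570 CPM in fresh-frozen libraries, so that fresh-frozen replicate 1 did not stand apart in it.

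Relatives of these factors that cells of the neural retina use stayed above 1 CPM in fixed retina. The 3 given here were chosen after their values were seen. SIX3 averaged 5.86 log2 CPM in PFA-fixed and 5.78 in fresh-frozen libraries (difference 0.08, SE 0.07, limma adjusted p = 0.352). SIX6 averaged 3.82 in PFA-fixed and 4.82 in fresh-frozen libraries (difference -0.99, SE 0.10, limma adjusted p = 2.63e-06). PAX6 averaged 7.68 in PFA-fixed and 7.17 in fresh-frozen libraries and was higher in PFA-fixed retina (difference 0.52, SE 0.10, limma adjusted p = 0.000601). Related homeodomain and paired-box genes of both kinds were thus measured in the same libraries.

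Enzymes of retinoid and steroid metabolism were few. ALDH1A2, which makes retinoic acid and is known from choroid and meninges, had -1.83, -1.35, -0.78 and -0.02 log2 CPM in PFA-fixed libraries, against 5.69, 5.39, 5.89 and 5.80 in fresh-frozen libraries, a difference of -6.69. HSD11B1, which regenerates active glucocorticoid, averaged -2.52 log2 CPM in fixed and 2.46 in fresh-frozen libraries. The related enzyme ALDH1A3 was not among the 156, at 1.92 log2 CPM in PFA-fixed and 2.75 in fresh-frozen libraries (limma adjusted p = 0.0668). ALDH1A1 spread widely within both groups, at 4.69, 5.52, 5.39 and -0.70 log2 CPM in PFA-fixed and 5.41, 5.89, 2.20 and 2.50 in fresh-frozen libraries (limma adjusted p = 0.862).

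TYR, tyrosinase, the enzyme that starts melanin synthesis, measured -1.85, -2.28, -2.03 and -1.49 log2 CPM in PFA-fixed libraries and 3.97, 4.38, 3.05 and 3.60 in fresh-frozen libraries. MLANA, a melanosome membrane protein, was at -1.48, -0.42, -1.42 and -3.12 log2 CPM in fixed libraries and 3.73, 4.08, 3.57 and 3.45 in fresh-frozen libraries. Both were highest in fresh-frozen replicate 2.

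PRX encodes periaxin, which Schwann cells of peripheral nerve use. It was at -0.39, -1.07, -1.19 and -0.40 log2 CPM in PFA-fixed libraries and at 3.31, 5.59, 4.18 and 4.01 in fresh-frozen libraries, a difference of -5.03. Among the fresh-frozen libraries it was highest in replicate 2 and lowest in replicate 1. CLDN11, a tight junction protein of oligodendrocyte myelin, had another order. It measured -1.48, -2.28, -3.12 and -2.35 log2 CPM in fixed libraries and 4.17, 2.10, 2.07 and 2.34 in fresh-frozen libraries, highest in replicate 1. The central myelin gene MBP, not among the 156, lay between 2.37 and 2.72 log2 CPM in PFA-fixed libraries, and was at 8.72, 5.31, 4.71 and 4.61 in fresh-frozen replicates 1 to 4.

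Immune and endothelial genes of the set were low in both preparations apart from TMEM119. TMEM119, used as a marker of microglia in brain and also expressed by bone-forming and other mesenchymal cells, measured -1.44, -3.12, -2.45 and -1.17 log2 CPM in PFA-fixed and 4.79, 4.91, 5.01 and 5.002 in fresh-frozen libraries. Another microglial gene, P2RY12, was measured at 0.89 log2 CPM in PFA-fixed and 0.66 in fresh-frozen libraries (difference 0.23, SE 0.38, limma adjusted p = 0.605). CSF1R, a receptor of macrophages and microglia, averaged 2.89 in PFA-fixed and 5.67 in fresh-frozen libraries (difference -2.78, SE 0.16, limma adjusted p = 2.84e-08). CX3CR1 and C1QC, also in the list of immune genes, were lower in PFA-fixed retina (differences -1.47 and -3.25, limma adjusted p = 0.000167 and 2.78e-05). Of the 25 tested genes of that list, 19 were lower and 4 higher, and 2, including P2RY12, passed in neither direction. CSF1R thus passed the test and P2RY12, low in both groups, did not. The difference between the changes of CSF1R and P2RY12 was not tested. The other 16 immune genes of the set, among them the T cell gene CD2, the kinase gene BTK and the Fc receptor subunit gene FCER1G, had fresh-frozen means from 0.45 for CD180 to 2.96 for ACP5, an osteoclast and macrophage phosphatase.

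SOX17, a factor of arterial endothelium, had -1.85, -1.37, -0.27 and -0.74 log2 CPM in PFA-fixed and 2.50, 1.94, 2.54 and 2.39 in fresh-frozen libraries. MMRN1, multimerin 1, a marker of lymphatic endothelium and platelets, was at -1.48, -1.07, -1.19 and -0.40 in fixed libraries and 3.76, 1.90, 1.80 and 1.29 in fresh-frozen libraries, highest in replicate 1. SELP, the adhesion molecule P-selectin, averaged -1.67 log2 CPM in fixed and 2.15 in fresh-frozen libraries. CLDN10 stood in the endothelial list but is also an epithelial claudin, and averaged -0.95 in fixed and 1.99 in fresh-frozen libraries.

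Muscle genes held both smooth and striated types. CNN1, calponin 1 of smooth muscle, measured -0.73, -0.41, -1.41 and -1.19 log2 CPM in PFA-fixed and 3.32, 1.85, 3.21 and 3.13 in fresh-frozen libraries, lowest in fresh-frozen replicate 2. RERGL, expressed in vascular smooth muscle, was lowest in the same library, at 1.32 log2 CPM, with the remaining values between 2.98 and 3.66. TNNI1, the troponin I of slow skeletal muscle, was at -1.82, -1.34, -1.95 and -1.09 in fixed libraries and at 4.17, 1.39, 0.63 and 0.92 in fresh-frozen libraries. Fresh-frozen replicate 1 was far above the other 3 for this gene. TTN, titin, not among the 156, was at 4.92 to 5.37 log2 CPM in PFA-fixed libraries and at 9.21, 4.08, 3.76 and 3.80 in fresh-frozen libraries, also highest in replicate 1. Not every gene of the striated muscle list did so, since TNNT2 was at 3.99, 4.04, 3.81 and 4.56 in fresh-frozen replicates 1 to 4.

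Of the 72 genes without a class, CTSE was the highest. It encodes cathepsin E, an aspartic protease of stomach and some immune cells, and measured -0.68, -1.02, -2.45 and -0.35 log2 CPM in PFA-fixed and 4.37, 4.43, 4.72 and 4.39 in fresh-frozen libraries. RBM47, an RNA-binding protein of epithelia, averaged -0.75 log2 CPM in fixed and 4.05 in fresh-frozen libraries. ATP2A3, a calcium pump of the endoplasmic reticulum, averaged -1.23 in fixed and 3.67 in fresh-frozen libraries. SPINK5, a protease inhibitor of skin and mucosal epithelium, was at -1.52, -0.98, -1.97 and -0.15 in fixed libraries and at 1.95, 4.46, 1.60 and 1.33 in fresh-frozen libraries, so a single library, fresh-frozen replicate 2, held most of its reads. CXNF, to which the gene table gave no entry, was at the lowest value in 3 fixed libraries and at -2.15 log2 CPM in PFA-fixed replicate 4, and measured 2.25, 0.20, 0.13 and 2.26 log2 CPM in fresh-frozen replicates 1 to 4.

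The choice of genes did not use the spread over the fresh-frozen libraries beyond the 1 CPM floor. Between 1 and 3 log2 CPM this spread was close to that of other genes of like level. The median SD over fresh-frozen libraries was 0.33 for the 156 genes and 0.16 for all genes. Between 1 and 3 log2 CPM it was 0.33 for 97 of the 156 genes and 0.31 for 1739 other genes. Genes below 1 or above 3 log2 CPM were not compared at like level. A range of at least 2 on the log2 scale was found in 13 of the 156 genes (8.33%) and in 135 of all genes (1.05%), which are not matched to them for level. Of the 13, 8 were highest in fresh-frozen replicate 1, 3 in replicate 2 and 1 each in replicates 3 and 4. Without fresh-frozen replicate 1 only RERGL, SPINK5 and CXNF kept a range of at least 2 over the remaining 3 libraries. At the other end, 31 genes stayed within 0.5, among them LUM, ALX4, TMEM119, PAX3, TBX18 and SELP.

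**Figure D4:**
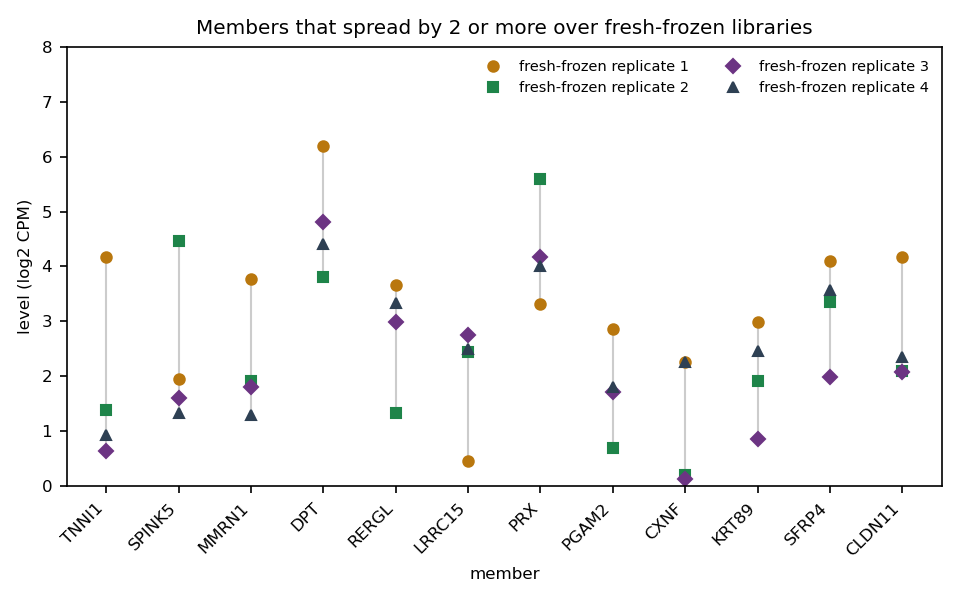
Levels (log2 CPM) in the 4 fresh-frozen libraries are shown for 12 of the 13 genes with a range of at least 2, ordered by range, with a symbol for each replicate and a grey line from lowest to highest. Replicate 1 is highest for 8 of them, including TNNI1 (4.17) and CLDN11 (4.17), and lowest for LRRC15 (0.44) and PRX (3.31).

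Set against 16 lists of marker and factor genes, 44 of the 156 genes stood in at least 1 list and 112 in none. All 44 were in the 15 lists other than that of retinal neurons and glia. They made up 13.8% of the 320 measured genes of those 15 lists, compared with 1.22% of the whole table. The table is not matched to the lists for level. Over all genes with a fresh-frozen mean between 1 and 2 log2 CPM the share was 8.04%. The lists were chosen with earlier results of these data known, so these shares are a description and no test. In the list of mesenchymal transcription factors 14 of 31 measured genes were among the 156 (45.2%). The share was 25% for Schwann cell and neural crest genes (4 of 16), 23.5% for trabecular meshwork, ciliary body and iris (4 of 17) and 20% for meninges and mesothelium (2 of 10). It was 12.8% for fibroblast and scleral matrix genes (6 of 47), 12.1% for endothelium (4 of 33) and 11.1% for melanocyte and melanosome genes (2 of 18). None of 22 pigment epithelium genes, 39 genes of retinal neurons and glia, 10 genes of surface and gland epithelium and 6 lens genes was below 1 CPM in all fixed libraries.

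The rest of each list was read from limma with Benjamini-Hochberg adjustment, in which 34.7% of all genes were lower and 33.9% were higher in PFA-fixed retina at an adjusted p below 0.05. Of the 17 mesenchymal transcription factors outside the 156, 16 were lower and none was higher (1 without PFA-fixed replicate 4), with a median change of -2.49 over the 17. One of the 16 was PITX1, at -0.47, -0.996, -1.62 and 0.31 log2 CPM in PFA-fixed and 5.44, 6.05, 6.16 and 5.87 in fresh-frozen libraries (limma adjusted p = 1.68e-08), which only PFA-fixed replicate 4 kept out of the set. TBX5 was the exception among them, at 3.78 ± 2.27 log2 CPM in PFA-fixed and 2.12 ± 2.33 in fresh-frozen libraries (SD, n = 4 each, limma adjusted p = 0.233).

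Fibroblast and scleral matrix genes outside the 156 were lower in 39 of 41 cases and higher in 1, with a median change of -3.59 over the 41. THBS4 and FBLN1, matrix glycoproteins, averaged 1.18 and 2.74 log2 CPM in PFA-fixed and 10.14 and 9.76 in fresh-frozen libraries (limma adjusted p = 2.99e-10 and 4.63e-12). Their differences of -8.97 and -7.02 lay beyond the median of the 156 genes (-3.51), and their fixed means were still above 1 CPM. Among melanocyte and melanosome genes outside the 156, 12 of 16 were lower and 3 higher. DCT, which acts after TYR in melanin synthesis, averaged 1.44 log2 CPM in PFA-fixed and 9.21 in fresh-frozen libraries (limma adjusted p = 4.59e-10). Pigment epithelium genes were lower in 21 of 22 cases with a median change of -2.72, among them RPE65, the visual cycle isomerase, at 4.68 in PFA-fixed and 9.58 in fresh-frozen libraries (limma adjusted p = 1.89e-08).

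Schwann cell and neural crest genes outside the 156 were lower in 8 of 12 cases and higher in 3. SOX10, the neural crest and glial factor, averaged 1.16 log2 CPM in PFA-fixed and 6.94 in fresh-frozen libraries (limma adjusted p = 2.34e-11). Outside the 156, endothelial genes were lower in 22 of 29 cases and higher in 6, immune genes lower in 19 of 25 and higher in 4, and genes of pericytes and smooth muscle lower in 14 of 18 and higher in 1. Genes of the trabecular meshwork, ciliary body and iris outside the 156 were lower in 9 of 13 cases and higher in 1, those of meninges and mesothelium lower in 7 of 8, and those of optic nerve glia and myelin lower in 7 of 14 and higher in 1 (3 without fresh-frozen replicate 1). Secreted growth factors, antagonists and binding proteins were lower in 28 of 42 cases and higher in 4.

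Striated muscle was the exception among the lists other than that of retinal neurons and glia. Of 12 measured genes outside the 156, none was lower and 5 were higher in fixed retina, with TNNT2, cardiac troponin T, at 6.31 log2 CPM in PFA-fixed and 4.10 in fresh-frozen libraries (limma adjusted p = 8.46e-08). Without fresh-frozen replicate 1, 7 genes of the list were higher, and leaving out PFA-fixed replicate 1, or any of fresh-frozen replicates 2 to 4, gave 3 higher genes. Genes of retinal neurons and glia were lower in 12 of 39 cases and higher in 15, with a median change of 0.11, and 7 were lower without PFA-fixed replicate 1. Of 10 surface and gland epithelium genes 5 were lower and 2 higher, and of 6 lens genes 3 were lower and 1 higher.

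**Figure D5:**
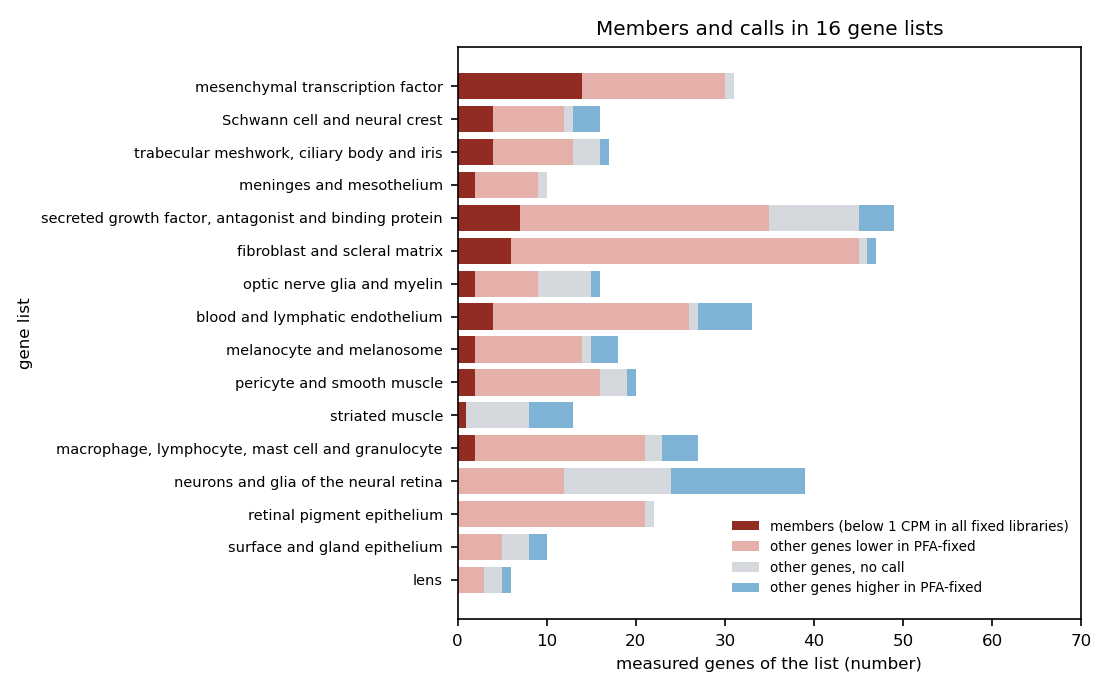
Bars give the number of measured genes in each of 16 lists, split into genes below 1 CPM in all 4 PFA-fixed libraries (dark red), other genes lower in PFA-fixed retina (light red), other genes with no call (grey) and other genes higher in PFA-fixed retina (blue), by limma at an adjusted p below 0.05. Mesenchymal transcription factors have the largest dark red share (14 of 31), and retinal pigment epithelium has none although 21 of its 22 genes were lower.

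For genes near the threshold a single fixed library decided whether they belonged to the set. The highest fixed value was -0.0001 log2 CPM for MATN4, -0.0073 for TMEM45A, -0.02 for ALDH1A2, -0.02 for ATP2A3 and -0.07 for EBF2, the 5 genes closest below it. FAM167A, SLC22A6 and FGL1 had their highest fixed value at 0.0003, and EGLN3 and IGFBP3 at 0.01, with the other 3 fixed libraries below 0. In all, 98 genes missed the set through a single fixed library. The reverse pattern, below 1 CPM in all 4 fresh-frozen libraries, was met by 53 genes, whose PFA-fixed mean had a median of 1.22 log2 CPM and did not exceed 2.39.

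The gene table held 152 of the 156 genes, and 5 pairs stood next to each other, among them KERA with LUM, PTGES with PRRX2, RDH16 with GPR182, and PHLDA3 with TNNI1. Among 172 measured neighbours outside the set, 68 (39.5%) were lower and 46 (26.7%) higher in PFA-fixed retina, beside 34.7% and 33.9% of all genes, with a median change of -0.17. VAMP4, next to MYOC, averaged 5.82 log2 CPM in PFA-fixed and 5.86 in fresh-frozen libraries (limma adjusted p = 0.606). Of the neighbours of ALX4, EXT2 averaged 6.62 in PFA-fixed and 6.60 in fresh-frozen libraries (limma adjusted p = 0.788). The other, CD82, averaged 0.61 in PFA-fixed and 3.66 in fresh-frozen libraries (limma adjusted p = 5.86e-08).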

How the data were processed

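Bulk total RNA libraries of 4 PFA-fixed and 4 fresh-frozen retina samples were compared. The authors deposited 1 table of log2 CPM, whose values are counts scaled to library size. The submitters' processing notes name edgeR, limma and the pseudo-aligner kallisto 0.48.0. What reference, strand setting and filter went with them is not given in the sources used here. A model of counts had been planned and was replaced, since these are log2 values.

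The 156 genes, the lists and the tests were chosen with earlier results of these data known. The genes' own differences are described and not tested. Other genes were tested over all 12824 genes in limma 3.58.1 (R 4.3.3, intensity trend, group as the single term), Benjamini-Hochberg threshold 0.05, PFA-fixed minus fresh-frozen, a step checked on simulated data. Depth was estimated from the comb of low values, of which 61.9% to 69.4% were whole reads within 0.1 (chance 20%), too few for recovering counts. Genes named are the 12 with the highest fresh-frozen mean, the 2 highest of each list, the 5 with the largest fresh-frozen SD, the 5 on each side of the threshold and, for each list, up to 3 other genes with the largest change. Further genes were named after their values were seen, and some genes that the rule takes are not reported here. The table of UU_Cfam_GSD_1.0 genes, which held 152 of the 156, served only for names and neighbours. Alternatives were other thresholds, scalings and filters, a replicate block and leaving out each library. The planned look at promoter motifs was not run and no sequence is given.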

Additional observations from a re-analysis of the deposited data

Results flagged for a closer look

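The 4 values of each group were screened for a lowest or highest library whose gap to the next one was beyond Dixon's critical share of the group's range, in 29 named genes and 58 groups. This marked 8 groups, where chance marks about 1 in 20 for genes not chosen by their values. Some of the 29 genes were named for a large fresh-frozen spread or a fixed value near the threshold, so that rate does not apply to them. CXNF and LRRC15 were at -2.15 and -2.35 in PFA-fixed replicate 4, with the other 3 fixed libraries at the lowest value, so these cases each rest on a single detected value. In fresh-frozen replicate 1, CLDN11 was at 4.17 and ATP2A3 at 4.27, both above the other 3 libraries, and LRRC15 was at 0.44, below them. CNN1 was at 1.85 in fresh-frozen replicate 2, below the others, and PAX3 was at 4.78 there, above the others. CTSE was at 4.72 in fresh-frozen replicate 3, above the others. The part of fresh-frozen replicate 1's higher muscle and optic nerve signal in these values was not tested.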

How the results depend on the processing

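The number of genes depended on the rule. It was 54 with a threshold of 0.5 CPM and 563 with 2 CPM, 320 when the mean of the fixed libraries had to be below 1 CPM, and 254 when at least 3 of 4 had to be, against 156. Without 1 fixed library it ran from 174 to 196, and leaving out a fresh-frozen library left it at 156. Quantile normalization gave 128 and centring on the median 152. The median fresh-frozen level, 1.78 log2 CPM, moved to 1.43 at 2 CPM and to 1.62 with quantile normalization, and ran from 1.73 to 1.82 when any 1 library was left out. With a replicate block, 4336 genes were higher and 4463 lower, against 4353 and 4451. Same-numbered libraries correlated at 0.05, 0.15, -0.09 and 0.22, and other combinations at -0.27 to 0.22. These values do not settle whether same-numbered libraries share a dog, and the main fit did not pair them. Of 448 recomputed list counts, which cover whole lists with any of the 156 genes in them, 423 stayed within 1.5 times, 22 were smaller and 3 larger. A minimum mean of 3 log2 CPM, which tests fewer genes, gave most of the smaller ones. Striated muscle had 3 higher genes in place of 5 without fresh-frozen replicate 2, 3 or 4, without PFA-fixed replicate 1, and with limma without trend. Lower genes of retinal neurons and glia numbered 7 in place of 12 without PFA-fixed replicate 1 and with median centring, and higher genes of optic nerve glia numbered 3 in place of 1 without fresh-frozen replicate 1. The cause was not tested. At under 14 reads per CPM in fixed libraries, the order of the 156 genes by fixed level is not resolved.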
